A study of Mus musculus with 18 samples.

Results

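Oxidative phosphorylation makes ATP in the mitochondrion. Complexes I and II pass electrons from NADH and succinate to ubiquinone, complex III passes them to cytochrome c, and complex IV passes them to oxygen. Complexes I, III and IV pump protons as they work, and complex V, the ATP synthase, uses the returning protons to make ATP. All subunits of complex II and most subunits of the others are encoded in the nucleus, while 13 core subunits of complexes I, III, IV and V are encoded in mitochondrial DNA and transcribed there by a separate polymerase. Sensory neurons have long axons and depend on this pathway for the ion pumping that follows each action potential. The genes described here are the protein-coding ones whose symbol begins with Nduf, Uqcr, Sdha to Sdhd, Cox4 to Cox8, Atp5 or mt-. The rule found 111 of 48529 genes with summed reads (21808 of them protein-coding), 98 nuclear and 13 mitochondrial. By role, 36 nuclear genes encode complex I subunits, 4 complex II, 8 complex III, 19 complex IV and 17 complex V, and 12 encode assembly factors. Cox7a2l, a factor that joins complexes III and IV, and Atp5s, a factor coupled to complex V, were kept apart. Any subunit gene under another symbol is not counted here.

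The libraries came from whole dorsal root ganglia (DRG), the clusters of sensory neuron cell bodies, glia and vessels beside the spinal cord. In the MM group, 9 male C57BL/KaLwRijHsd mice had received cells of the myeloma line 5TGM1-GFP in the femur, and in the SHAM group 9 male mice of the same strain had received vehicle. Lumbar ganglia L2, L3 and L4 of the injected side were collected on day 24 after surgery, and the labels give an age of 5 to 7 weeks for both groups. The strain is the one in which this myeloma line grows, and the tumour is a transplanted line rather than a disease that arose in the mice.

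The libraries held 19218249 to 21771206 estimated reads each. Every library carried the defining genes of sensory neurons: the summed level of 10 neuronal markers was 8880 to 20800 CPM in MM and 14700 to 20500 CPM in SHAM (CPM, counts scaled to a common library size). Of 15774 genes tested with edgeR's quasi-likelihood test, 433 rose and 38 fell in MM, which is 2.99% of the genes (Benjamini-Hochberg adjusted p under 0.05). Among them were 7 of 8 tested plasma and myeloma cell markers, 4 of 6 macrophage markers and 5 of 5 proliferation genes, which rose, and 5 of 5 red blood cell genes, which fell. Plasma cell markers summed to 4400, 5010 and 8440 CPM in MM5, MM8 and MM9, against at most 904 CPM in the other MM libraries and at most 139 CPM in SHAM. Among the SHAM libraries, SHAM8 and SHAM7 stood apart by their skeletal muscle transcripts, with 10 muscle markers summing to 20200 and 4170 CPM. In bulk tissue a difference in the number of cells of a type and a difference in RNA per cell cannot be told apart.

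The comparison of MM with SHAM asks whether the transcripts of the respiratory chain differed between ganglia of myeloma-bearing and vehicle-treated mice. No oxidative phosphorylation gene passed the test: 0 of 94 tested nuclear genes and 0 of 13 mitochondrial genes were called by edgeR, beside 2.99% of all genes. At an unadjusted p under 0.05 the nuclear count was 4 of 94 (4.26%), the mitochondrial count was 0 of 13, and the count over all genes was 3556 of 15774 (22.5%). DESeq2 called 0 nuclear and 0 mitochondrial genes beside 7.15% of all genes, with 6 and 0 at an unadjusted p under 0.05. With limma on the authors' normalized table the counts were again 0 and 0, beside 1.41% of all genes, with 3 and 0 at an unadjusted p under 0.05. The median log2 fold change was -0.004 over the nuclear genes, -0.014 over the mitochondrial genes and -0.004 over all genes tested. The values of MM and SHAM libraries overlapped for every tested gene of the pathway, as they did for nearly all genes: the groups did not overlap for 0.146% of all genes tested, so nothing is read from this.

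The pathway was also measured closely enough to bound most of its members. For 83 of 94 nuclear genes the 95% interval of the fold change lay within 1.2-fold in either direction, that is, within 0.26 on the log2 scale. The same was true of 5425 of 10176 genes at a mean of at least 10 CPM and of 1 of 13 mitochondrial genes. The median standard error of the log2 fold change was 0.062 for nuclear genes and 0.126 for mitochondrial genes. It was 0.098 for all genes tested and 0.072 for those at a mean of at least 10 CPM. Nuclear genes of the pathway varied less between animals than all genes at 10 CPM or more in MM, but not in SHAM. Their median SD of log2 CPM was 0.135 across MM libraries and 0.119 across SHAM libraries, against 0.180 in MM and 0.112 in SHAM for all genes at 10 CPM or more. The mitochondrial genes varied more, with a median SD of 0.265 in MM and 0.313 in SHAM. Depth was no limit for most members: 3 reads, the limit given for a count of 0, correspond to between 0.14 and 0.16 CPM.

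**Figure D1:**
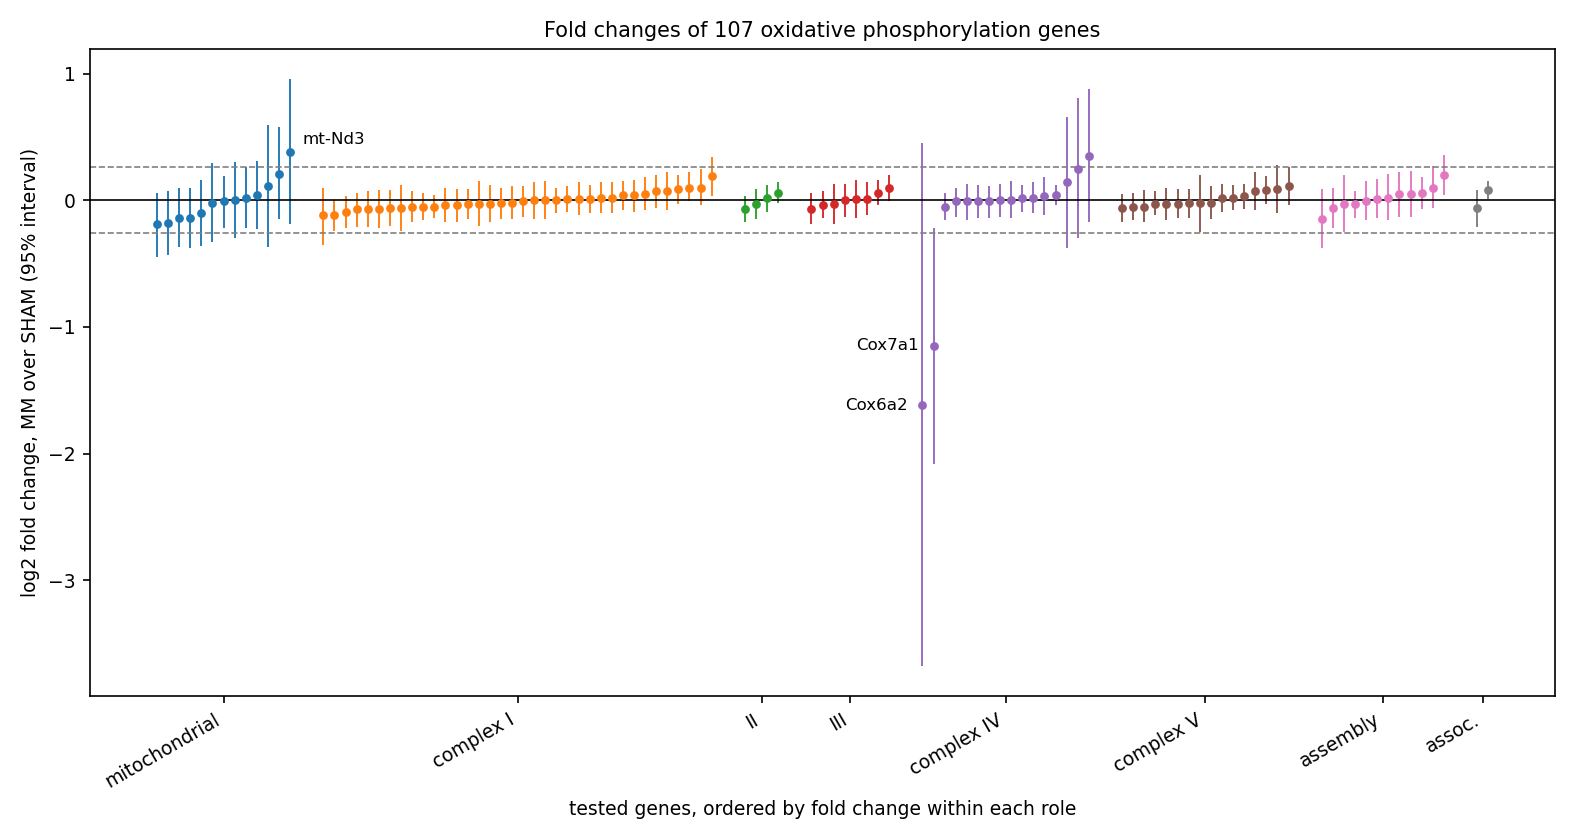
Log2 fold change (MM over SHAM) of the 107 tested genes with 95% intervals, grouped by role and ordered within each role; dashed lines mark 0.26 in either direction. Most nuclear genes lie close to 0 with short intervals, and Cox6a2 (-1.62) and Cox7a1 (-1.15) lie far below the rest.

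As a group, the 98 nuclear genes summed to 8448 ± 537 CPM in MM, against 8535 ± 475 CPM in SHAM (mean ± SD, 9 mice in either group, as in all such pairs here). The MM libraries ran between 7430 and 9460 CPM with a median of 8450, and the SHAM libraries between 7980 and 9680 CPM with a median of 8480. The ranges overlap, and the difference of group means, -87.2 CPM, is a fraction of either SD. Its sign depended on single libraries: it was 56.0 CPM without SHAM8 and 39.7 CPM without MM5. As a share of reads the nuclear genes took 0.851 ± 0.0375% in MM and 0.844 ± 0.0244% in SHAM. By this share MM5 was the lowest of all 18 libraries (0.782%) and MM3 the highest (0.921%). By summed CPM the lowest was again MM5, and the highest was SHAM8. The 13 mitochondrial genes took 3.91 ± 0.547% of reads in MM and 3.91 ± 0.661% in SHAM. MM libraries lay between 3.09% (MM4) and 4.81% (MM3), and SHAM libraries between 3.27% (SHAM5) and 5.38% (SHAM8). The group means of the share differed by far less than the spread between mice. Mitochondrial reads exceeded nuclear ones in every library, with a ratio of 4.61 ± 0.697 in MM and 4.62 ± 0.660 in SHAM. That ratio was highest in MM5 at 6.07 and in SHAM8 at 6.01, and lowest in MM4 at 3.61. In reads, MM5 had the lowest nuclear share beside a mitochondrial share of 4.74%. SHAM8 had the highest mitochondrial share beside a nuclear share of 0.896%.

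**Figure D2:**
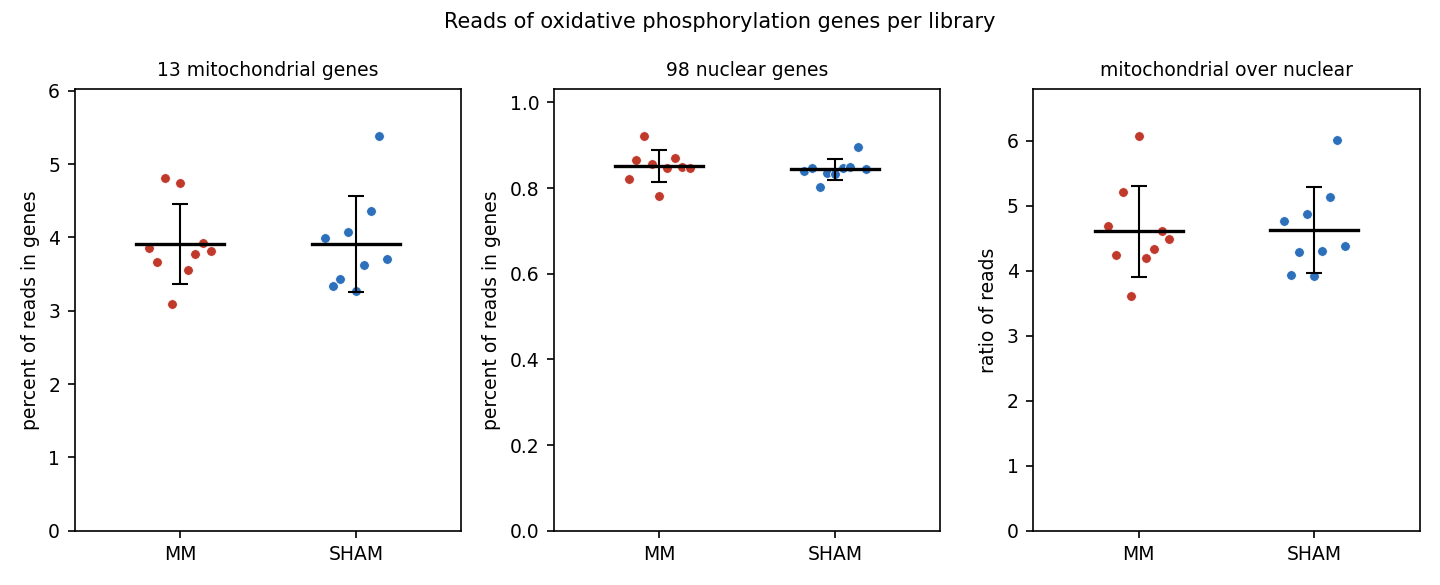
Percent of reads in the 13 mitochondrial genes (left) and the 98 nuclear genes (middle), and the ratio of these (right); each point is 1 library, lines and bars are the mean and SD of 9 mice. MM and SHAM means coincide at 3.91% for the mitochondrial genes, and SHAM8 is the highest SHAM library in each plot.

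The mitochondrial genome is transcribed from both strands as long precursors that are cut into single messages. The proteins it encodes are subunits of complexes I, III, IV and V. Compared per length in TPM (transcript abundance corrected for length), mt-Co1, the catalytic subunit of complex IV, averaged 17500 TPM in MM and 18300 TPM in SHAM. The level of mt-Cytb, the cytochrome b of complex III, was 10100 TPM in MM and 10400 TPM in SHAM. For comparison, the most abundant nuclear message was Atp5b, the catalytic beta subunit of complex V, at 1960 TPM in MM and 2240 TPM in SHAM. Cox8a and Cox6a1, small subunits of complex IV, followed at 1410 and 1300 TPM in MM, against 1490 and 1370 TPM in SHAM. The nuclear genes of the pathway therefore lay well under the best-measured mitochondrial ones on this scale.

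Among the 7 mitochondrial subunits of complex I, mt-Nd6 (ENSMUSG00000064368) had the lowest adjusted p of the 13 genes. It ran between 339 and 552 CPM with a median of 435 in MM, and between 408 and 791 CPM with a median of 445 in SHAM. The groups overlapped, and SHAM8 alone set the upper end. Its log2 fold change was -0.19 ± 0.12 (SE; edgeR adjusted p = 0.353). mt-Nd6 is the one protein gene read from the light strand, and the sources used here do not state whether the libraries kept the strand. The level of mt-Nd4 (ENSMUSG00000064363), a proton-pumping subunit, was 5320 ± 756 CPM in MM, against 5850 ± 1250 CPM in SHAM (log2 fold change -0.14 ± 0.11). Another pumping subunit, mt-Nd5 (ENSMUSG00000064367), was at 3530 ± 527 CPM in MM ganglia and 3890 ± 837 CPM in SHAM ganglia, with a log2 fold change of -0.14 ± 0.12. Only 1 of 9 MM libraries exceeded the SHAM median for mt-Nd5 and for mt-Nd4l, and 2 of 9 for mt-Nd4, yet none of these passed the test (edgeR adjusted p = 0.485, 0.381 and 0.477). Without SHAM8 the log2 fold changes were -0.09 for mt-Nd6, -0.04 for mt-Nd4, -0.05 for mt-Nd5 and -0.08 for mt-Nd4l, so their size rested in good part on that library. Reads of mt-Nd4l and mt-Nd4, and of mt-Atp8 and mt-Atp6, cannot be fully told apart, because the members of each pair overlap. The fold changes of mt-Nd1 and mt-Nd2 were 0.04 ± 0.13 and -0.02 ± 0.15 on the log2 scale.

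The other mitochondrial genes with reads of their own gave values near 0. mt-Cytb (ENSMUSG00000064370) was at 5410 ± 928 CPM in MM, against 5330 ± 1040 CPM in SHAM, with a log2 fold change of 0.02 ± 0.12. For mt-Co1 (ENSMUSG00000064351) the levels were 13700 ± 1710 CPM in MM, against 13800 ± 2520 CPM in SHAM (log2 fold change -0.01 ± 0.10). Both groups of mt-Atp8, a small subunit of complex V, averaged 233 CPM, with an SD of 50.3 in MM and 50.4 in SHAM. Single libraries moved most of these genes together. SHAM8 was the highest SHAM library for 11 of 13 genes, MM3 was the highest MM library for 8, and MM4 was the lowest MM library for 9. MM4, SHAM2, SHAM3 and SHAM5 exceeded the SHAM median for 0 of 13 genes, while MM3 and SHAM7 exceeded it for all 13.

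**Figure D3:**
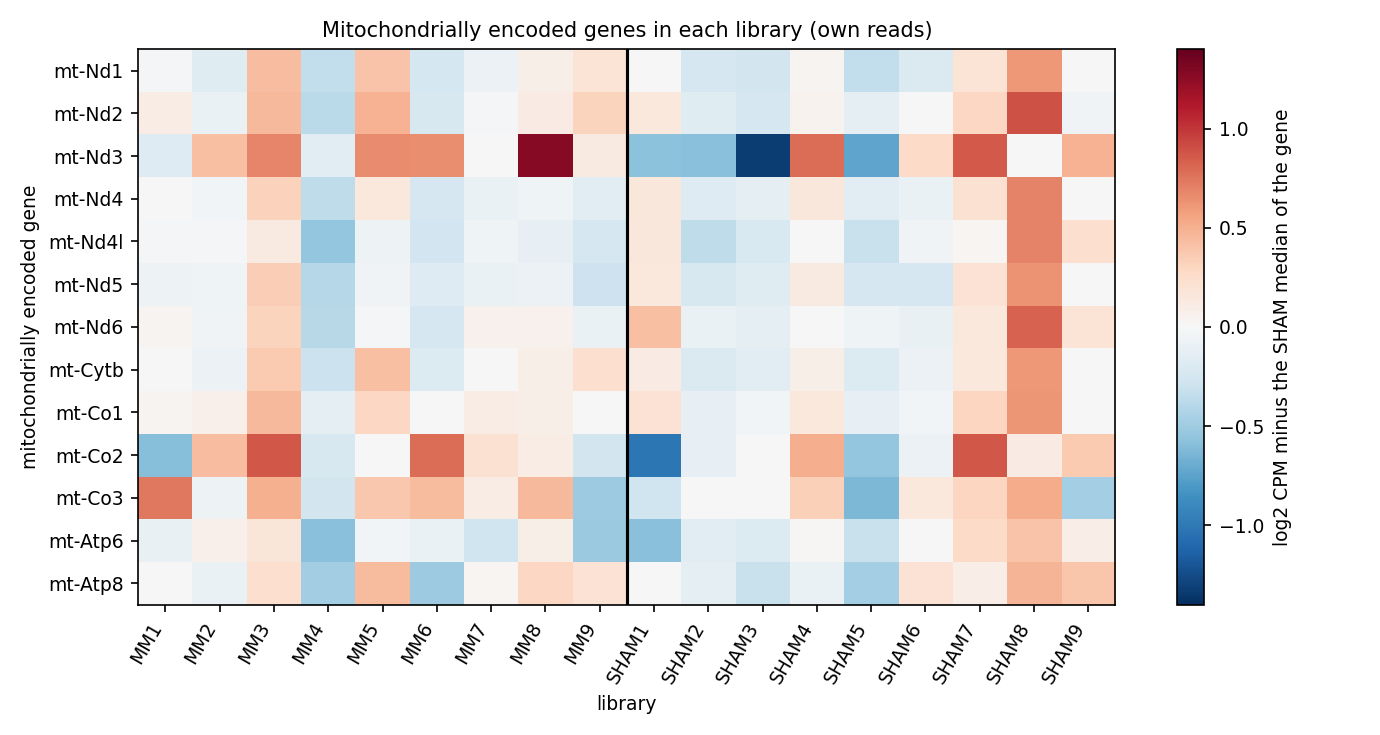
Log2 CPM of each of the 13 mitochondrial genes minus that gene's SHAM median; columns are the 9 MM and then the 9 SHAM libraries, red is above and blue below the median. Most rows share the red columns of MM3 and SHAM8 and the blue columns of MM4, SHAM2, SHAM3 and SHAM5, while mt-Nd3 and mt-Co2 are close to their median in SHAM8 (0 and 0.11).

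For 4 mitochondrial genes most reads had been assigned elsewhere. The nuclear genome holds stretches of old mitochondrial DNA, and on mouse chromosome 1 these include near-perfect copies that the annotation lists as pseudogenes. Gm28661 matches 681 of 684 bases of mt-Co2, Gm28437 783 of 784 bases of mt-Co3, and Gm10925 678 of 681 bases of mt-Atp6, each without a mismatch, so that only the last bases of the gene are missing from the copy. Gm28438 matches 344 of 348 bases of mt-Nd3: it has the substitution T3C (mitochondrial base first, counted from the start of the gene) and lacks the last 3 bases. The sequences below, from GRCm38 and the GENCODE transcripts, show how little separates gene and copy. For mt-Co2 and Gm28661, bases from 625 to the end are shown, with the bases that only the mitochondrial gene has in capitals. For mt-Nd3 and Gm28438, bases 1 to 60 are shown, with the differing base in capitals.
mt-Co2: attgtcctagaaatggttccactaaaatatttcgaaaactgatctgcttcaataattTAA
Gm28661: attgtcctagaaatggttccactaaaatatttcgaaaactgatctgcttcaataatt
mt-Nd3: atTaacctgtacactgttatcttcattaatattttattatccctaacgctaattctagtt
Gm28438: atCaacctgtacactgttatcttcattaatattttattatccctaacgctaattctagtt

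A read that does not cover one of the few differing bases fits gene and copy equally well, and the deposited estimates divided such reads between them. Over all libraries the copy took 93.45% of the joint reads of mt-Nd3, 92.12% of mt-Co2, 85.3% of mt-Co3 and 80.25% of mt-Atp6. The division was not fixed: the copy's share for mt-Co3 ran from 75.2% to 90.6% between MM libraries and from 82.8% to 89.5% between SHAM libraries. The levels of these 4 genes by their own reads alone are therefore uncertain. With the copy added, the coefficient of variation of mt-Co2 was 14.7% in MM and 18.7% in SHAM, in place of 34.3% in MM and 36.8% in SHAM. That of mt-Nd3 was 39.9% in MM and 23.0% in SHAM, in place of 35.6% in MM and 48.5% in SHAM, and that of mt-Atp6 was 25.4% in MM and 17.5% in SHAM, in place of 17.4% in MM and 20.4% in SHAM. Joint values were thus more even than own reads in SHAM for these 3 genes, and less even in MM for mt-Nd3 and mt-Atp6. For the other mitochondrial genes at most 2.71% of joint reads over all libraries lay on such a copy. That was the value of mt-Nd4l, whose copy held up to 10.1% in an MM library and up to 9.18% in a SHAM library. Whether any of these reads came from chromosome 1 was not tested.

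With the copy added, mt-Co2, the subunit that receives electrons from cytochrome c, was at 5581 ± 818 CPM in MM ganglia and 5342 ± 997 CPM in SHAM ganglia. By its own reads it was at 445 ± 153 CPM in MM, against 412 ± 152 CPM in SHAM. For mt-Co3, the third core subunit of complex IV, the joint level was 5149 ± 709 CPM in MM, against 4749 ± 868 CPM in SHAM (log2 fold change 0.12 ± 0.10). Both genes thus stayed within the spread between mice whichever way their reads were counted. For mt-Atp6, the proton channel subunit of complex V, the sign of the fold change depended on the copy: the joint level was 8103 ± 2060 CPM in MM ganglia and 6850 ± 1200 CPM in SHAM ganglia (log2 fold change 0.24 ± 0.14, edgeR adjusted p = 0.300). By own reads it was 1430 ± 248 CPM in MM, against 1530 ± 311 CPM in SHAM (log2 fold change -0.10 ± 0.13, edgeR adjusted p = 0.658).

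The largest joint difference was that of mt-Nd3, a small core subunit of complex I. With Gm28438 added it had 474, 529, 716, 571, 1112, 444, 517, 676 and 1197 CPM in MM1 to MM9, against 418, 385, 348, 537, 407, 552, 558, 663 and 376 CPM in SHAM1 to SHAM9. MM9 and MM5 were far above all other libraries, MM3 and MM8 were also above the highest SHAM library, and the remaining MM libraries lay inside the SHAM range. The log2 fold change was 0.56 ± 0.20 with a 95% interval from 0.14 to 0.97, and edgeR's adjusted p was 0.115 beside 2.99% of genes called in that fit. By own reads the levels were 43.1 ± 15.4 CPM in MM, against 33.1 ± 16.0 CPM in SHAM, with a log2 fold change of 0.38 ± 0.27 and an adjusted p of 0.411. MM5, MM8 and MM9 are the libraries with the most plasma cell transcript, and their neuronal markers summed to 8880, 17500 and 12400 CPM. The part of these cells in the mt-Nd3 values was not tested. With all copies added, the mitochondrial genes took 5.61 ± 0.881% of reads in MM and 5.37 ± 0.879% in SHAM, and 0 nuclear and 0 mitochondrial genes were called (5 and 1 at an unadjusted p under 0.05).

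**Figure D4:**
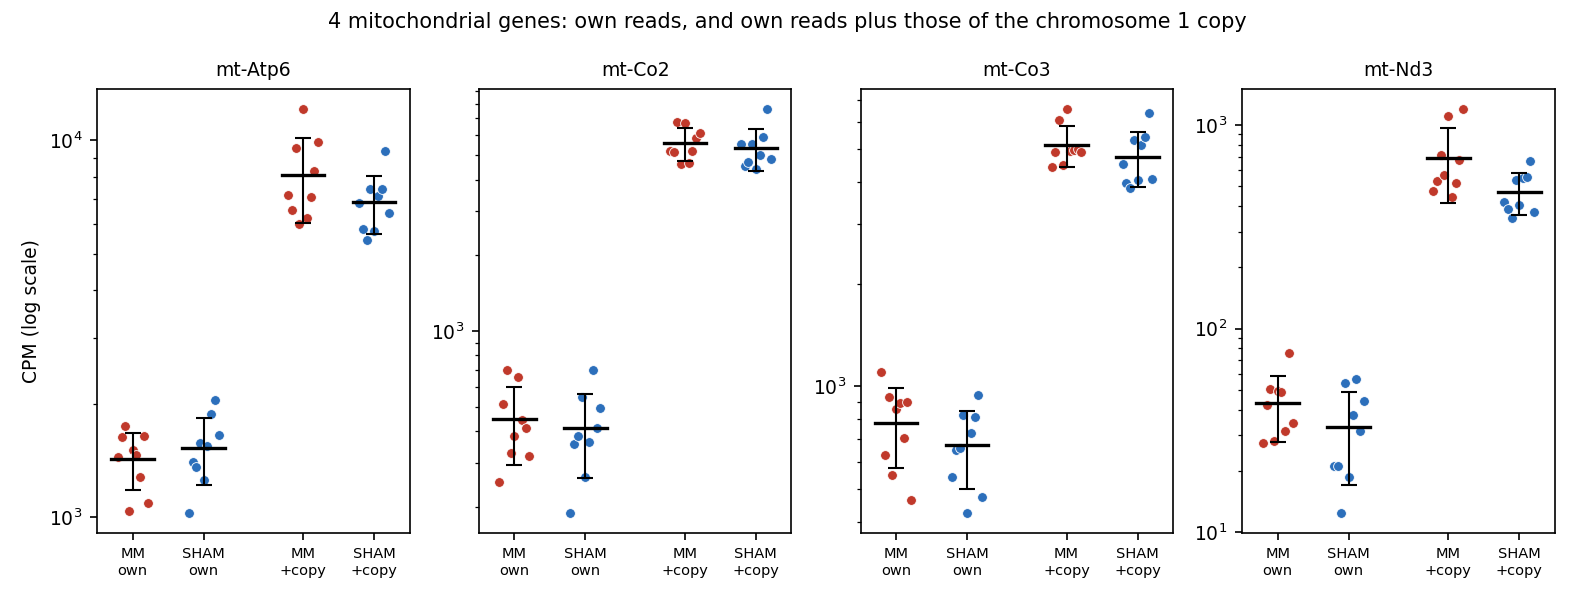
CPM (log scale) of mt-Atp6, mt-Co2, mt-Co3 and mt-Nd3 by their own reads (own) and with the reads of the chromosome 1 copy added (+copy); points are libraries, lines and bars are the mean and SD of 9 mice. Adding the copy lifts mt-Co2 to 5581 CPM in MM ganglia and 5342 CPM in SHAM ganglia, and mt-Nd3 reaches 1112 and 1197 CPM in MM5 and MM9.

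Complex I, the largest complex, takes electrons from NADH. Its 36 nuclear subunit genes summed to 2197 ± 143 CPM in MM, against 2218 ± 143 CPM in SHAM. None of the 36 passed the test, 14 had positive and 22 negative fold changes, and for 34 the interval lay within 1.2-fold. The core subunits that hold the flavin and iron-sulphur clusters had log2 fold changes between -0.07 (Ndufs1) and 0.01 (Ndufv2). Ndufv1, which binds NADH, was at 105 ± 8.70 CPM in MM, against 105 ± 4.83 CPM in SHAM, and Ndufs1, an iron-sulphur subunit, at 120 ± 11.5 CPM in MM ganglia and 125 ± 12.1 CPM in SHAM ganglia. Ndufb11 (ENSMUSG00000031059), a supernumerary subunit of the membrane arm, had the lowest p of the complex. It ran between 50.1 and 74.4 CPM with a median of 57.1 in MM, and between 47.1 and 61.9 CPM with a median of 48.9 in SHAM. All 9 MM libraries were above the SHAM median, with MM9 and MM5 highest, but 7 of them lay under the highest SHAM library, SHAM8. The log2 fold change was 0.19 ± 0.07 (edgeR adjusted p = 0.148). The lowest fold changes of the complex were those of Ndufb2, at 31.4 ± 2.94 CPM in MM, against 34.1 ± 2.49 CPM in SHAM (log2 fold change -0.12 ± 0.06, edgeR adjusted p = 0.238), and Ndufa3, at 42.6 ± 6.77 CPM in MM, against 46.4 ± 7.88 CPM in SHAM (-0.12 ± 0.11). The reads of Ndufb4 and Ndufab1 were also shared with pseudogenes, which held 45.67% and 15.56% of the joint reads. Joint fold changes were -0.04 ± 0.07 and -0.02 ± 0.06 on the log2 scale, close to -0.06 ± 0.09 and -0.03 ± 0.06 by own reads.

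Complex II, succinate dehydrogenase, is also an enzyme of the citric acid cycle and has 4 subunits, all nuclear. They summed to 451 ± 24.6 CPM in MM ganglia and 461 ± 23.0 CPM in SHAM ganglia, and all 4 intervals lay within 1.2-fold. Sdha (ENSMUSG00000021577), the flavoprotein that oxidises succinate, ran between 196 and 256 CPM with a median of 239 in MM, and between 234 and 274 CPM with a median of 242 in SHAM. MM5 was the lowest library, and the other MM values lay among the SHAM ones or just under them (log2 fold change -0.07 ± 0.05, edgeR adjusted p = 0.387). Sdhc, a membrane anchor, had 73.7 ± 3.32 CPM in MM, against 70.5 ± 3.96 CPM in SHAM, and the iron-sulphur subunit Sdhb had 87.5 ± 5.97 CPM in MM, against 89.4 ± 8.47 CPM in SHAM.

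Complex III passes electrons from ubiquinol to cytochrome c. The 8 nuclear genes of it that the rule caught, those with Uqcr symbols, summed to 719 ± 42.1 CPM in MM ganglia and 725 ± 53.5 CPM in SHAM ganglia. All 8 intervals lay within 1.2-fold. Uqcrq (ENSMUSG00000044894), a small subunit next to cytochrome b, ran between 78.2 and 93.3 CPM with a median of 80.6 in MM, and between 71.1 and 91.5 CPM with a median of 76.1 in SHAM. All 9 MM libraries were above the SHAM median, although the lowest of them were close to it and SHAM8, at 91.5 CPM, exceeded 8 of the 9. The log2 fold change was 0.10 ± 0.05 and did not pass (edgeR adjusted p = 0.246). Uqcrh, the hinge protein that docks cytochrome c1, was at 60.3 ± 5.23 CPM in MM, against 57.9 ± 2.41 CPM in SHAM. Uqcrfs1, the Rieske iron-sulphur protein, had 71.6 ± 6.34 CPM in MM, against 71.5 ± 7.30 CPM in SHAM.

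Complex V has the catalytic F1 head and the proton-driven membrane rotor. Its 17 genes summed to 3165 ± 208 CPM in MM ganglia and 3211 ± 169 CPM in SHAM ganglia, and 15 of 16 tested genes had an interval within 1.2-fold, all but Atp5e, a small subunit of the head. Atp5b was at 1080 ± 66.1 CPM in MM, against 1100 ± 58.9 CPM in SHAM. Atp5a1, which forms the head with Atp5b, was at 637 ± 51.6 CPM in MM, against 663 ± 40.0 CPM in SHAM. The lowest p values of the complex were those of Atp5l, the subunit g of the membrane part (70.9 ± 7.93 CPM in MM ganglia and 65.8 ± 6.77 CPM in SHAM ganglia, log2 fold change 0.11 ± 0.07), and Atp5g3. A second locus named Atp5o (ENSMUSG00000116933) had 2 reads in all and was not tested.

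The rotor ring is built from subunit c, an identical mature protein made from the genes Atp5g1, Atp5g2 and Atp5g3. Atp5g1 was at 147 ± 11.9 CPM in MM, against 153 ± 11.5 CPM in SHAM, with a log2 fold change of -0.05 ± 0.05. For Atp5g3 the levels were 116 ± 11.2 CPM in MM, against 110 ± 4.85 CPM in SHAM (0.08 ± 0.05). Atp5g2 had 9.91 ± 1.83 CPM in MM ganglia and 10.1 ± 1.37 CPM in SHAM ganglia by its own reads, but the pseudogene Gm10175 held 83.94% of the joint reads. With that copy added it had 57.2, 54.6, 64.7, 58.2, 77.6, 59.5, 62.9, 75.2 and 91.2 CPM in MM1 to MM9, against 53.0, 54.9, 56.1, 52.6, 52.0, 60.4, 59.1, 69.5 and 61.1 CPM in SHAM1 to SHAM9. The libraries MM9, MM5 and MM8 were the highest of all 18, and the other MM libraries overlapped SHAM. The joint log2 fold change was 0.21 ± 0.09 with a 95% interval from 0.02 to 0.40 and an edgeR adjusted p of 0.183, in place of -0.02 ± 0.11 by own reads.

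The 12 assembly factors help to put complexes I and II together and are not part of the finished enzymes. They summed to 201 ± 14.2 CPM in MM, against 200 ± 6.48 CPM in SHAM, and 9 of 12 intervals lay within 1.2-fold. Sdhaf1 (ENSMUSG00000074211), which helps to insert the iron-sulphur clusters of Sdhb, ran between 8.97 and 12.6 CPM with a median of 11.3 in MM, and between 8.10 and 11.2 CPM with a median of 9.30 in SHAM. MM libraries lay above the SHAM median in 8 of 9 cases, and 5 of them above the highest SHAM library (log2 fold change 0.20 ± 0.08, edgeR adjusted p = 0.146). Sdhaf3, with a related task, was at 13 ± 2.39 CPM in MM, against 14.4 ± 1.91 CPM in SHAM (-0.15 ± 0.11), where MM5 was lowest at 7.96 CPM. The remaining gene at an unadjusted p under 0.05 with a positive fold change was Cox7a2l, at 114 ± 5.93 CPM in MM ganglia and 108 ± 3.03 CPM in SHAM ganglia (0.08 ± 0.03, edgeR adjusted p = 0.191).

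Complex IV, cytochrome c oxidase, is the complex with most tissue isoforms. Its 19 nuclear genes, with Ndufa4 and Ndufa4l2 counted here, summed to 1584 ± 125 CPM in MM, against 1595 ± 98.1 CPM in SHAM. Of 16 tested genes 11 had an interval within 1.2-fold, and the other 5 were low isoforms. The widespread isoforms were alike in both groups. Cox4i1 (ENSMUSG00000031818), the largest nuclear subunit, ran between 191 and 229 CPM with a median of 203 in MM, and between 192 and 207 CPM with a median of 198 in SHAM (log2 fold change 0.04 ± 0.04). Cox6a1 was at 231 ± 26.5 CPM in MM, against 232 ± 13.9 CPM in SHAM, and Cox8a at 232 ± 20.7 CPM in MM ganglia and 234 ± 21.3 CPM in SHAM ganglia. Cox6b1, Cox7a2 and Cox7b had log2 fold changes of -0.01 ± 0.06, 0.02 ± 0.05 and -0.01 ± 0.06. Ndufa4, a subunit once assigned to complex I, was at 193 ± 24.5 CPM in MM, against 193 ± 11.6 CPM in SHAM.

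The second isoforms were all scarce. Cox4i2, the isoform of oxygen-sensing cells and pericytes, was at 1.04 ± 0.566 CPM in MM, against 0.946 ± 0.203 CPM in SHAM, and the pericyte list had 0 of 5 markers called. Ndufa4l2, a hypoxia-responsive relative of Ndufa4, was at 1.61 ± 0.589 CPM in MM ganglia and 1.26 ± 0.505 CPM in SHAM ganglia (log2 fold change 0.35 ± 0.25, edgeR adjusted p = 0.410). Cox6b2, best known from testis, was at 1.16 ± 0.461 CPM in MM, against 0.975 ± 0.465 CPM in SHAM. These 3 genes had wide intervals, and their groups overlapped. A pair of further testis isoforms were at the limit of detection: Cox7b2 had 12 reads over all libraries and Cox8c had 0, and neither was tested.

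The muscle isoforms Cox6a2, Cox7a1 and Cox8b replace Cox6a1, Cox7a2 and Cox8a in skeletal and heart muscle. Cox6a2 and Cox7a1 had the largest fold changes of the tested genes of the pathway. Cox7a1 (ENSMUSG00000074218) had 0.788, 1.48, 1.24, 1.37, 1.54, 2.13, 1.29, 2.11 and 1.06 CPM in MM1 to MM9, against 1.23, 2.61, 1.26, 1.76, 1.68, 2.16, 3.45, 13.7 and 1.14 CPM in SHAM1 to SHAM9. SHAM8 stood far above every other library and SHAM7 came next. SHAM2 and SHAM6 also exceeded the highest MM library by a little, and the other SHAM libraries lay inside the MM range. The log2 fold change was -1.15 ± 0.44, the lowest adjusted p of all members (edgeR, 0.144), and it was -0.40 without SHAM8. Cox6a2 (ENSMUSG00000030785) ran between 0.383 and 8.78 CPM with a median of 2.74 in MM, and between 0.207 and 68.7 CPM with a median of 0.488 in SHAM. The SHAM mean was set by SHAM8, SHAM7 (14.1 CPM) and SHAM2 (9.78 CPM), and 8 of 9 MM libraries exceeded the median of SHAM. Its log2 fold change was -1.62 ± 0.99 (edgeR adjusted p = 0.335), 0.03 without SHAM8 and 0.89 without SHAM7 and SHAM8, so the direction rested on these libraries. Cox8b had 479 of its 737 reads in SHAM8 and 86 in SHAM7, and was not tested. In SHAM8, Cox6a2 made up 23.8% of Cox6a reads, Cox7a1 15.4% of Cox7a reads and Cox8b 9.92% of Cox8 reads.

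Skeletal muscle markers were also highest in SHAM8 and SHAM7. All 10 markers (Acta1, Ckm and others) had negative fold changes and 0 of 10 passed the test. Their summed level ran between 18.7 and 2130 CPM with a median of 81.8 in MM, and between 3.84 and 20200 CPM with a median of 32.9 in SHAM, so the medians lay the other way from the fold changes. In MM5, MM8 and MM9 Cox6a2 had 77, 56 and 174 reads beside muscle marker sums of 68.6, 21.7 and 233 CPM. Markers of heart or slow muscle summed to between 1.08 and 3.08 CPM in MM and between 0.958 and 2.47 CPM in SHAM. The highest sum was that of MM8, and 0 of these 5 markers were tested. The part of muscle tissue in the values of the 3 isoforms was not tested. Without SHAM7 and SHAM8, 0 nuclear and 0 mitochondrial genes were called (3 and 0 at an unadjusted p under 0.05), beside 0.219% of all genes.

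**Figure D5:**
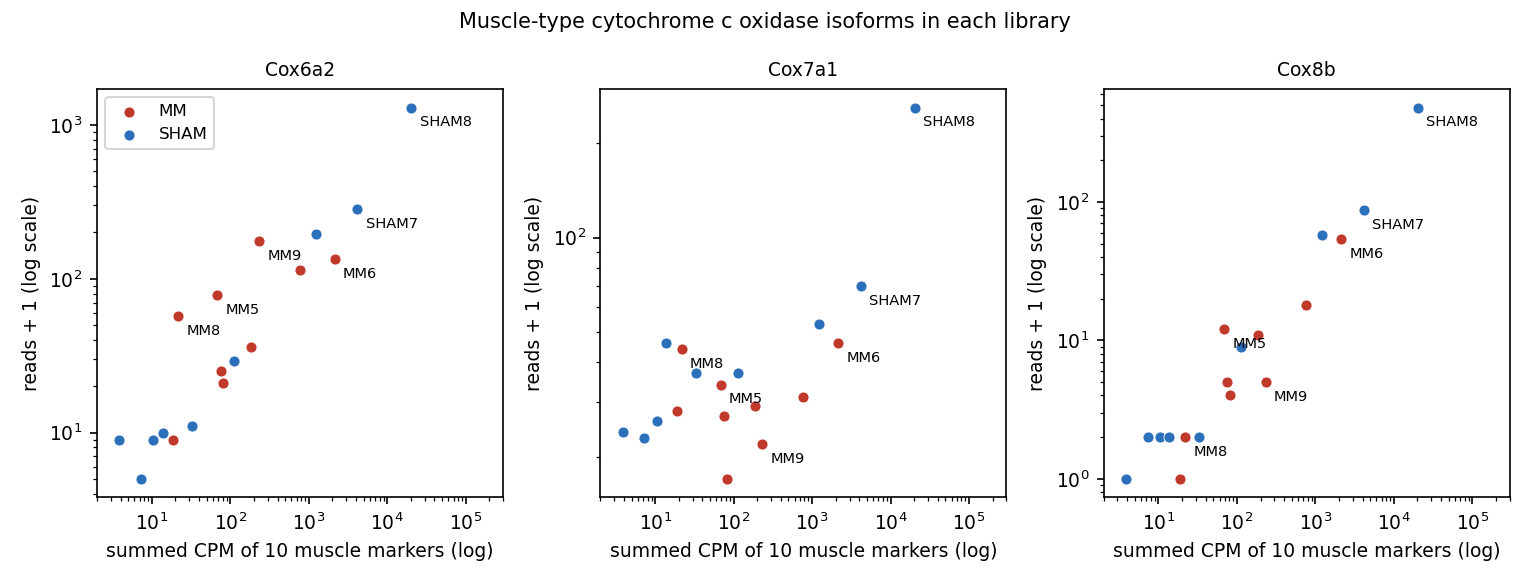
Reads plus 1 of Cox6a2, Cox7a1 and Cox8b in each library (y, log scale) against the summed CPM of 10 skeletal muscle markers (x, log scale); MM in red, SHAM in blue. SHAM8, with 1296, 259 and 479 reads, lies at the upper right of each plot.

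Promoters of the nuclear genes shared sequence features that the choice of genes did not use. Respiratory genes are textbook targets of NRF1 and of the ETS-family factor GABP. In RefSeq windows of 300 bases (250 before and 50 after the start, GRCm38.p6), 78 of 97 nuclear symbols had 83 windows. The NRF1 motif searched, GCGCA followed by any base and GCGC, stood on either strand in 22 of 83 windows (26.5%), against 1356 of 21263 windows of all protein-coding genes (6.38%). The core ETS motif CCGGAAG stood in 21 windows (25.3%), against 2459 windows of all genes (11.6%). At least 1 of them stood in 38 windows (45.8%), against 3551 of all (16.7%); windows with both count once. Complex IV had the NRF1 motif in 1 of 13 windows, that of Cox6a1, and complex V in 6 of 16. Below are stretches before the start of Cox6a1 and Sdha, chosen because they hold matches, and of the muscle isoforms Cox7a1 and Cox8b. Each is written in the direction of transcription from GRCm38.p6, with motif matches on either strand in capitals. Cox6a1 (chr5:115348959-115349128, minus strand) and Sdha (chr13:74350241-74350350, minus strand) hold such matches, and Cox7a1 (chr7:30184061-30184170, plus strand) and Cox8b (chr7:140900447-140900556, minus strand) hold none in the stretch shown. A match is a string of letters and not evidence of binding.
Cox6a1: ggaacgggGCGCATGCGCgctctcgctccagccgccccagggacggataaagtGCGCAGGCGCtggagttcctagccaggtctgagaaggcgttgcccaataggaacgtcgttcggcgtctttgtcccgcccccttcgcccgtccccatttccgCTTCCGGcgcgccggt
Sdha: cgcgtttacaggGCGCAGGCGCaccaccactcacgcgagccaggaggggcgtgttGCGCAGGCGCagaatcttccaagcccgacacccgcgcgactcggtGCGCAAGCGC
Cox7a1: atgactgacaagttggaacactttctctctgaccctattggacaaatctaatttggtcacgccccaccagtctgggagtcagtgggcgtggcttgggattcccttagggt
Cox8b: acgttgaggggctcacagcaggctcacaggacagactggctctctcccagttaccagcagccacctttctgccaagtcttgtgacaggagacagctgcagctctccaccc

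Genes that act around the respiratory chain were read from the same fit, and none was called in any of 7 lists. The regulators of respiratory genes had 0 of 8 called, with a median log2 fold change of 0.021. Ppargc1b, a coactivator of mitochondrial biogenesis, had the lowest p among them, at 4.46 ± 0.923 CPM in MM, against 5.80 ± 0.518 CPM in SHAM (log2 fold change -0.38 ± 0.11, edgeR adjusted p = 0.0692). Its relative Ppargc1a was at 27.8 ± 6.82 CPM in MM, lowest in MM5 (15.1) and MM9 (17.3), and at 34.2 ± 6.76 CPM in SHAM (-0.30 ± 0.16). Nrf1, whose protein binds the NRF1 motif, had a log2 fold change of 0.27 ± 0.09 (edgeR adjusted p = 0.116). Gabpa, the DNA-binding part of GABP, had one of 0.04 ± 0.06. For Gabpb1, the other GABP gene in the list, it was 0.29 ± 0.11 (edgeR adjusted p = 0.15). Regulators thus lay on both sides of 0.

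The 10 genes of mitochondrial transcription and replication all had positive fold changes, with a median of 0.118 against -0.004 over all genes, and 0 of 10 passed. Tfam, which packages mitochondrial DNA, was at 17.9 ± 2.82 CPM in MM ganglia and 16.2 ± 1.4 CPM in SHAM ganglia (log2 fold change 0.14 ± 0.08), with MM9 highest at 24.1 CPM. Polrmt, the mitochondrial RNA polymerase, had a log2 fold change of 0.03 ± 0.05, and the elongation factor Tefm one of 0.31 ± 0.12 (edgeR adjusted p = 0.136). Of 78 mitochondrial ribosome genes 62 had positive fold changes (median 0.040), 0 passed, and 10 (12.8%, beside 22.5% of all genes) had an unadjusted p under 0.05, all of them higher in MM. The lowest adjusted p of that list was 0.0561, for Mrpl9 at 29.4 ± 2.09 CPM in MM, against 26.1 ± 1.5 CPM in SHAM.

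The citric acid cycle, which feeds NADH and succinate to the chain, had 0 of 17 genes called and a median of -0.043. Ogdh, a subunit of the oxoglutarate dehydrogenase, had the lowest p there (350 ± 34.1 CPM in MM, against 396 ± 32.5 CPM in SHAM, log2 fold change -0.18 ± 0.06, edgeR adjusted p = 0.111), and citrate synthase, Cs, was at 332 ± 27.6 CPM in MM ganglia and 338 ± 28.6 CPM in SHAM ganglia. Of 22 cytochrome c oxidase assembly genes 21 were tested and 0 called (median -0.002). Carriers, with Cycs for cytochrome c among them, had 0 of 12 called (median 0.031), and Cycs was at 99.4 ± 10.3 CPM in MM, against 97.9 ± 11.0 CPM in SHAM. Glycolysis had 0 of 17 called, with 15 negative fold changes and a median of -0.119. Its summed level ran between 7470 (MM5) and 10800 CPM in MM and between 8950 and 15100 CPM (SHAM8) in SHAM, so that SHAM8 was again the highest library. At an unadjusted p under 0.05 the share of a list ran from 0 of 17 genes of glycolysis to 3 of 8 regulators (37.5%), beside 22.5% of all genes.

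The even levels of the pathway hid library patterns that cut across the groups. MM5 had the lowest MM value for 48 of 94 tested nuclear genes, and MM3 the highest for 59. In SHAM, SHAM8 had the highest value for 64 nuclear genes and SHAM3 the lowest for 34. MM5, low in nuclear messages, had the lowest sum of neuronal markers (8880 CPM), the highest of Schwann cell markers (17300 CPM) and a mitochondrial share of 4.74%. MM3 had 20800 CPM of neuronal and 3820 CPM of Schwann cell markers, and SHAM8 had 18300 and 2710 CPM. SHAM3, low in many nuclear messages, had 19500 CPM of neuronal and 7540 CPM of Schwann cell markers. Neuronal markers had 0 of 10 genes called, all with negative fold changes, and Schwann cell markers 0 of 6, all positive. The part of the mix of cell types in these library patterns was not tested. Without MM5, MM8 and MM9 the median log2 fold change was 0.019 over nuclear and -0.091 over mitochondrial genes. Without SHAM7 and SHAM8 it was 0.029 over nuclear and 0.098 over mitochondrial genes, so that the sign of the mitochondrial median depended on which libraries were left out. Without MM5, MM8 and MM9, 0 genes of either kind were called (3 and 0 at an unadjusted p under 0.05), beside 0.375% of all genes.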

How the data were processed

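Total RNA of whole lumbar DRG from 9 MM and 9 SHAM mice was sequenced on a DNBSEQ platform, per the labels' protocols. Salmon 1.5.2, DESeq2 and GRCm39 are named in the submitters' processing notes. The deposited quantification files hold an estimated count and a TPM value per transcript, with an effective length, per the file headers; the deposited table of the authors holds a normalized signal per gene (17787 genes, pseudocount 1 for limma). Estimated counts were summed per gene with GENCODE M21 and rounded. That annotation is on GRCm38, an older build than the authors'. It assigned transcripts to genes, gave gene names and types, and supplied the transcript sequences that were compared with pseudogenes. Of 137562 transcripts 3620 had no gene and held 0.85% to 1.339% of reads; they were left out, which leaves 19013852 to 21537955 reads.

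Genes were kept by filterByExpr, scaled by TMM and put through edgeR 4.0.16 (glmQLFit with robust estimation and glmQLFTest, in R 4.3.3). The model held the group alone. Benjamini-Hochberg adjustment ran over all 15774 genes, and the common biological coefficient of variation was 0.258. Alternatives used DESeq2 1.42.0 and limma 3.58.1. The script was tested on simulated data. Pseudogenes sharing at least 50% of 31-mers with a gene counted as its copies, an alternative chosen after seeing the data, as was leaving out SHAM7 and SHAM8. Named genes were all mt- genes, the 2 lowest p in each complex and in the assembly factors, the 5 largest rises and falls among nuclear genes at a mean of at least 1 CPM, and isoform pairs. Other genes were named for their role after their values were seen. The members and lists were chosen with earlier results of these data known. Replicates are separate mice, per the series design. CPM totals are for whole libraries; intervals are 95%. Figures and tables used Python 3.11.15, numpy 2.4.6, pandas 2.3.3 and matplotlib 3.10.9.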

Additional observations from a re-analysis of the deposited data

Results flagged for a closer look

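In 27 of 90 groups of 9 libraries that were checked, 1 library lay far from the nearest of the others by Dixon's criterion. For normally distributed values chance meets that criterion in about 1 in 20 groups. The values checked include strongly skewed ones, such as the muscle marker sums, so this rate need not hold here. SHAM8 was the outlying library in 18 of the 27 groups, and these groups share genes and libraries, so they are not independent.

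Among mitochondrial genes, SHAM8 stood apart in SHAM with 19494 CPM of mt-Co1 (next library 15595), 7828 CPM of mt-Cytb (next 5691), 6996 CPM of mt-Nd1 (next 5231), 4376 CPM of mt-Nd2 (next 2887), 8813 CPM of mt-Nd4 (next 6331), 337 CPM of mt-Nd4l (next 246), 5771 CPM of mt-Nd5 (next 4304) and 791 CPM of mt-Nd6 (next 595). Its share of reads in mitochondrial genes with copies was 7.29%, against 5.93% in the next SHAM library. In MM, MM3 had 4742 CPM of mt-Nd5 (next 3605) and MM8 had 75.8 CPM of mt-Nd3 by its own reads (next 50.4).

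Among nuclear genes, SHAM8 stood apart with 61.9 CPM of Ndufb11 (next 53.7), 274 CPM of Sdha (next 253), 178 CPM of Atp5g1 (next 157), 13.7 CPM of Cox7a1 (next 3.45) and 68.7 CPM of Cox6a2 (next 14.1). The same library was highest in the nuclear sum with 9681 CPM (next 8655), in complex II with 516 CPM (next 476) and in complex V with 3608 CPM (next 3270). In complex I it had 2562 CPM (next 2256) and in complex III 858 CPM (next 745), also the highest of the SHAM libraries. SHAM8 was the highest SHAM library in complex IV as well, with 1804 CPM (next 1695). Its skeletal muscle markers summed to 20161 CPM (next 4167). SHAM9 stood apart with 265 CPM of Cox6a1 (next 238) and 288 CPM of Cox8a (next 237).

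In MM, MM3 had 174 CPM of Atp5g1 (next 152), MM5 had 2.19 CPM of Cox6b2 (next 1.38) and MM8 had 2.45 CPM of Cox4i2 (next 1.16). MM6 was low in Ndufa3 with 28 CPM (next 39.8) and high in muscle markers with 2131 CPM (next 766). What set these libraries apart was not tested.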

How the results depend on the processing

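The counts of called genes stayed at 0 nuclear and 0 mitochondrial under all 27 alternatives. Of 1026 fold changes of 38 named genes under these alternatives, 881 had the same sign at 2 decimals, 41 had the opposite sign, 23 were 0.00, and 81 belonged to the 3 genes with a fold change of 0.00 when all libraries were kept, which have no sign to keep. Those ranged from -0.04 to 0.02 (Cox6a1), -0.06 to 0.06 (mt-Atp8) and -0.03 to 0.05 (Ndufa4) with 1 library left out. None of the 1026 was called, and the largest with the opposite sign was 0.89. Without SHAM7 and SHAM8 the log2 fold change was 0.02 for mt-Atp6, 0.10 for mt-Co1, 0.16 for mt-Nd2, 0.89 for Cox6a2 and 0.03 for Cox7b. Without MM5, MM8 and MM9 it was -0.07 for mt-Cytb, -0.06 for mt-Nd1, -0.08 for Cox4i2, 0.01 for Cox6b1, 0.04 for Cox7b and 0.01 for Atp5g2. With pseudogene copies added it was 0.24 for mt-Atp6 and 0.21 for Atp5g2, and with limma on the authors' table it was 0.44 for Cox6a2. Leaving out 1 library at a time gave ranges of -0.07 to 0.02 (Atp5g2), -0.12 to 0.25 (Cox4i2), -1.92 to 0.03 (Cox6a2), -0.05 to 0.01 (Cox6b1), -0.04 to 0.02 (Cox7b), -0.05 to 0.03 (Cox8a), -0.06 to 0.06 (mt-Co1), -0.03 to 0.11 (mt-Cytb), -0.01 to 0.14 (mt-Nd1) and -0.07 to 0.11 (mt-Nd2). The cause was not tested beyond the libraries left out.

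With the replicate number as a block, Cox6a2 was at 0.56, 0 members were called and 8 genes (0.0507%) were called in all. The labels name no pairing of mice by these numbers. Of 9 same-numbered pairs 2 had a correlation of deviations over 0.1 (range -0.32 to 0.26), and 2 MM libraries correlated best with their own number. Such correlations cannot show whether mice were paired, because other differences between libraries can hide a pairing. The count over all genes was 60 without MM5, MM8 and MM9, 1388 with DESeq2, 35 without SHAM7 and SHAM8 and 251 with limma on the authors' table, against 471. The summed nuclear CPM was not computed for limma and the block, and the share of reads does not depend on scaling, filter or tool.

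Reads were divided between genes and near-identical copies by the authors' quantification, the strand setting is not given in the sources used here, and isoforms near 1 CPM have wide intervals.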

Other observations

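In 3 MM libraries Cox6a2 was high relative to a muscle actin. Reads of Cox6a2 per 1000 reads of Acta1 were 475 in MM8, 200 in MM5 and 176 in MM9, on 56, 77 and 174 reads of Cox6a2. In the libraries with most muscle transcript the same quantity was 11.6 in MM6, 13.1 in SHAM8 and 13.6 in SHAM7. Ratios of 400 in SHAM1 and 190 in SHAM3 rest on 8 reads of Cox6a2 each. SHAM9 had 133 on 4 reads, SHAM6 had 130 on 9 reads and MM7 had 87.9 on 8 reads. Muscle markers summed to 3.84 CPM in SHAM1, 10.4 in SHAM3, 7.28 in SHAM9, 13.7 in SHAM6 and 18.7 in MM7. High ratios were thus also seen in SHAM libraries with little muscle transcript. MM8, MM5 and MM9 also had the most Ighg2b, at 2330, 2200 and 4370 CPM, against 11.7 to 390 CPM in the other MM libraries and 0.1 to 16.4 CPM in SHAM. The pattern was noticed in these values and was not tested.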
